A study of Mus musculus with 24 samples.

Results

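Adipocytes that had been differentiated for 7 days from cells labelled Cre were compared with adipocytes from cells labelled ctrl. The comparison rests on the 3 Cre and 3 ctrl RNA-seq libraries of day 7, which are 6 of the 24 libraries of the series. Of the 24825 genes listed in each library, 11805 reached an FPKM, the read count scaled to gene length and library size, of 1 or more in 3 or more of these 6 libraries and were tested. At the edge of this filter, 378 genes reached that level in exactly 3 libraries and were kept, and 274 genes reached it in 2 libraries and were left out. For a gene kept through the 3 libraries of a single group, the lack of overlap between groups is fixed by the filter.

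The cells were stromal vascular fraction (SVF) cells from the inguinal white fat of mice, a preparation of mixed cell types that holds adipocyte precursors. They came from Nfia flox/flox mice, in which loxP sites flank exon 2 of Nfia, and were immortalised with a retrovirus carrying SV40 large T antigen. The ctrl cells then received an empty retroviral vector and the Cre cells a vector for Cre recombinase. Both groups thus come from floxed cells that carry large T antigen. Both were differentiated in the same thermogenic adipocyte medium, which held isobutylmethylxanthine, indomethacin, dexamethasone, insulin, T3 and rosiglitazone at first and insulin, T3 and rosiglitazone afterwards. Rosiglitazone is itself an agonist of PPARγ and was present in both groups. The sources used here do not say how many preparations were immortalised or whether the 3 replicates of a group were separate cultures, so p-values measure only the spread between these libraries. The same cells at day 0, before differentiation, and day 7 libraries of Cre cells that also received full-length NFIA (Cre + NFIA) are given beside the values where stated. Libraries of Cre cells that received NFIA without its C-terminal pro#3 domain (Cre + NFIA deltapro#3) entered the fits, but their values are not given. The comparison asks what changes in differentiated cells when Cre recombinase is introduced to target exon 2 of Nfia. The presence of Cre recombinase and the loss of exon 2 cannot be told apart in these libraries.

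NFIA belongs to the nuclear factor I family, whose members bind DNA as dimers at the palindrome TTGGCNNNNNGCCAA or, less tightly, at a single arm of it, and it acts in adipocytes together with PPARγ. Adipogenesis is driven by PPARγ and C/EBPα, which switch on the genes of lipid storage, lipolysis and hormone secretion while genes of the precursor state, such as those of the extracellular matrix, are turned down. Thermogenic adipocytes add mitochondria, fatty acid oxidation and, in their full form, the uncoupling protein UCP1.

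The label was examined first at the targeted gene. Nfia lies on chromosome 4 of the mouse genome (NCBIM37, the assembly that mm9 names), from 97439425 to 97868605 on the plus strand. Exon 2 of the transcript Nfia-001, which has 11 exons, spans 97449773 to 97450304, and 10 of 12 annotated transcripts hold it. Its 532 bases are 5.52% of the 9643 bases over which the deposited Nfia value was computed, so a gene-level value is not a measure of exon 2. At this level Nfia did not fall in the libraries labelled Cre, with 10.1 ± 0.588 FPKM (SD, n = 3) against 9.55 ± 0.355 in ctrl and an overlap of the groups (log2 change 0.07, SE 0.07, limma adjusted p = 0.422). The labels are therefore not checked by these values, and "Cre" below means the libraries labelled so. The study also measured Nfia with RT-qPCR primers, which are shown because they separate the targeted exon from the rest of the gene. In the pair below, the forward primer of "Nfia" lies in exon 1 (chr4:97444661-97444682) and its reverse primer wholly within exon 2 (chr4:97449851-97449872), whereas "Nfia_all variants" spans exon 5 (chr4:97680924-97680943) and exon 6 (chr4:97687539-97687558). All are written 5′ to 3′, and the reverse primers match the minus strand.
Nfia forward: gtattctccgctctgtctcacc
Nfia reverse: ttttgaagtatttccgctttcg
Nfia_all variants forward: ggccccaatttttctctctc
Nfia_all variants reverse: tgtccatttcatcctccaca

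The libraries held 10496357 to 14113465 reads in ctrl and 9152991 to 11993378 reads in Cre, at which 3 reads, taken as the smallest level shown, are a CPM (reads scaled to a common library total) of 0.213 to 0.328. This floor covers counting error only. The first principal component took 80.7% of the variance of the 6 libraries and placed the ctrl libraries at 24.31, 35.54 and 33.07 and the Cre libraries at -29.66, -22.62 and -40.64, so Cre replicate 3 lay farthest from ctrl and Cre replicate 2 nearest. Markers of mature adipocytes had a summed level of 4378.4 to 5139.9 FPKM in ctrl against 872.8 to 1854.5 FPKM in Cre, and 7 of 7 tested markers were lower at 1.5-fold (limma adjusted p under 0.05), a call made for 10.3% of all genes tested. Markers of fibroblasts and precursors summed to 1340.6 to 1469.6 FPKM in ctrl against 2354.1 to 2656.8 FPKM in Cre, with 5 of 8 tested markers higher, against 14.3% of all genes, and 1 lower. Both sets of libraries thus held adipocyte RNA, and these sums moved in opposite directions with the label. In these bulk samples fewer adipocytes in a culture and less adipocyte RNA per cell cannot be told apart, and this holds for every adipocyte gene below. Markers of other cell types had summed levels of at most 10.1 FPKM in these libraries, other than the mural markers at 32.0 to 60.4 FPKM. The macrophage markers Adgre1, Ptprc, C1qa, C1qb and Aif1, the endothelial markers Tie1, Emcn and Robo4 and the Schwann cell markers Sox10 and Cdh19 were at 0 in all 6 libraries, while the macrophage marker Cd68 had 188 reads in the ctrl group, the endothelial Tek 190 and Egfl7 113, the Schwann cell Mbp 602 and the epithelial Krt19 372.

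At an adjusted p under 0.05 (limma, Benjamini-Hochberg) with a change of at least 3-fold on the log2(FPKM + 1) scale, 160 genes were lower in Cre and 29 were higher, 1.36% and 0.246% of the genes tested. The 160 lower genes had a median level of 30.4 FPKM in ctrl against 7.05 FPKM in Cre, and their median Cre level was 22.3% of ctrl. Cre replicate 3 had the lowest value of the Cre libraries for 138 of the 160, and without it 107 genes were lower and 22 higher. For the counts of gene lists a change of at least 1.5-fold was used. At that size 1684 genes (14.3% of those tested) were higher and 1214 (10.3%) were lower. The median change of all genes was 0.09 on the log2 scale, and median-of-ratios size factors moved it to -0.02, which turned the split to 1279 higher and 1531 lower genes. Changes are differences of log2(FPKM + 1), in which low genes move less than their ratio, and the 9 lower and 6 higher called genes under 200 bases are not named.

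**Figure D1:**
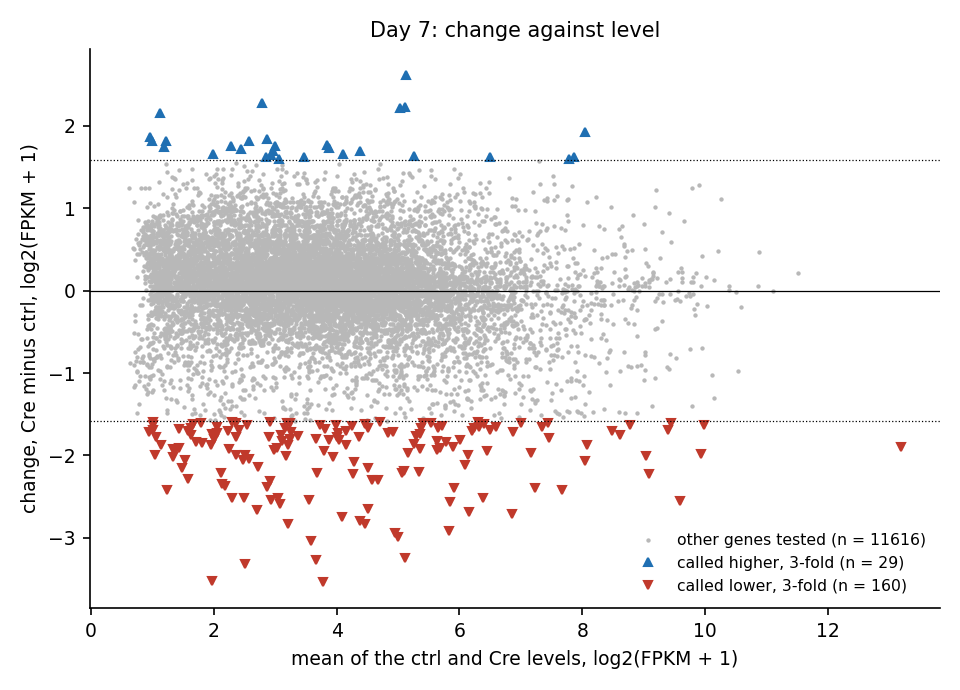
Change of each tested gene at day 7 (Cre minus ctrl, log2(FPKM + 1), vertical axis) against its mean level in the 6 libraries (log2(FPKM + 1), horizontal axis). Triangles pointing down are the 160 genes called lower and triangles pointing up the 29 called higher at 3-fold (dotted lines), and grey points are the other genes tested; the called genes lie mostly below the line at 0 and reach the highest levels measured.

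The 4 members of the nuclear factor I family did not move together. Nfib, at 15.3, 14.3 and 15.9 FPKM in the 3 ctrl libraries, had 4.67, 5.85 and 3.73 FPKM in Cre, a fall of 1.51 on the log2 scale (SE 0.17, limma adjusted p = 1.04e-05). Nfix went the other way, from 40.5, 39.9 and 36.2 FPKM to 60.6, 62.8 and 67.5 FPKM (log2 change 0.70, SE 0.06, adjusted p = 9.33e-07 by limma). Neither gene's groups overlapped, which was also so for 25.4% of all genes on the lower side and 40.5% on the higher side. The rise of Nfix was 0.58 with median-of-ratios size factors, which is under 1.5-fold. Nfic, the most abundant of the family, was at 61.1 ± 2.5 FPKM in ctrl against 68.4 ± 2.63 FPKM in Cre, a change of 0.16 that was under 1.5-fold (limma adjusted p = 0.0211). In Cre + NFIA libraries Nfib had a mean of 12.7 FPKM and Nfix of 32.3 FPKM.

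Of the transcription factors that drive adipogenesis, 9 of 26 tested were lower in Cre at 1.5-fold and 2 were higher, against 10.3% and 14.3% of all genes, with a median change of -0.16. Pparg, which encodes the master regulator of fat cell formation, had 50.1, 51.2 and 54.8 FPKM in ctrl against 24, 27 and 16.3 FPKM in Cre (log2 change -1.21, SE 0.18, limma adjusted p = 0.000109). Cebpa, encoding its partner C/EBPα, had 138.2, 174.9 and 149.7 FPKM in ctrl against 69.3, 85.7 and 49.0 FPKM in Cre (-1.20, SE 0.21, limma adjusted p = 0.00034). Both genes had a level in Cre above that of day 0, where Pparg was at 3.87 and 2.84 FPKM and Cebpa at 11.2 and 8.60 FPKM in ctrl and Cre. The largest fall of the list was that of Rxrg, which encodes a retinoid X receptor, the dimer partner of PPARγ. Rxrg had 7.62, 8.91 and 7.5 FPKM in ctrl against 1.38, 1.76 and 0.115 FPKM in Cre, a fall of 2.21 on the log2 scale (SE 0.25, limma adjusted p = 9.78e-06). The nuclear receptor gene Nr1h3 (LXRα, a sterol sensor) changed by -1.60, and the lipogenic regulators Mlxipl (ChREBP) and Srebf1 (SREBP1) by -1.49 and -1.46. Zfp423, a marker of committed preadipocytes, changed by -0.75. The early regulator Cebpb, at 19.4, 28.5 and 21.1 FPKM in ctrl against 22.0, 27.7 and 17.5 FPKM in Cre, gave no call (-0.04, SE 0.18, limma adjusted p = 0.867). Klf4, a factor of the first hours of differentiation, was higher, with 15.6, 13.6 and 13.3 FPKM in ctrl against 29.8, 29.5 and 31.1 FPKM in Cre (1.04). The late activators named here were thus lower without overlap of the groups, the groups overlapped for Cebpb, and Klf4 was higher without overlap. Of all genes tested, 25.4% were lower and 40.5% higher without overlap.

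Factors known to hold adipogenesis back showed the opposite count. At 1.5-fold 12 of 22 tested were higher and 0 lower, against 14.3% and 10.3% of all genes, with a median change of 0.64. Their median level was 5.25 FPKM in ctrl against 9.12 FPKM in Cre. Dlk1, which encodes the preadipocyte protein Pref-1, had 4.01, 4.30 and 3.42 FPKM in ctrl against 11.8, 13.0 and 13.0 FPKM in Cre (log2 change 1.47, SE 0.09, limma adjusted p = 3.08e-07). Zfp521, a zinc finger antagonist of Ebf1 and Zfp423, rose by 1.15, and Snai2, encoding the mesenchymal repressor Slug, by 1.09. Klf2 and Gata2, both repressors of Pparg, rose by 1.08 and 0.95, and Runx2, the bone lineage factor, by 0.82. Snai2 was at 30.7, 20.3 and 25.2 FPKM in ctrl against 55.8, 51.9 and 56.3 FPKM in Cre. In each of these genes every Cre library lay above every ctrl library, which was also so for 40.5% of all genes tested. The lowest change of the list was -0.31, which is under 1.5-fold. That member was sought by the symbol Taz and then Wwtr1, and which gene its value belongs to was not checked.

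Genes of lipid storage were lower in Cre in most cases. Of the lipid droplet proteins 8 of 14 tested were lower and 1 was higher, against 10.3% and 14.3% of all genes. Cidec, which fuses droplets, had 1583.3, 1899.4 and 1719.3 FPKM in ctrl against 604.2, 784.1 and 365.4 FPKM in Cre (log2 change -1.63, SE 0.33, limma adjusted p = 0.000962). Plin1, which coats the droplet and guards it against lipases, had 438.1, 516.4 and 453.2 FPKM in ctrl against 176.1, 233.2 and 116.2 FPKM in Cre (-1.47). Plin5, which tethers droplets to mitochondria, changed by -2.14. The broadly expressed droplet protein gene Plin3 did not share this, with a change of 0.29 that was under 1.5-fold, and Lpcat2, which remodels the droplet's phospholipids, was higher by 0.79.

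The same was seen for the making of triglyceride and of fatty acids. Of the triglyceride synthesis genes 10 of 13 tested were lower and 1 was higher, against 10.3% and 14.3% of all genes. The median change of the list was -1.30. Gpd1, which makes glycerol 3-phosphate, had 1601.3, 1988.9 and 1882.1 FPKM in ctrl against 333.2, 453.0 and 196.0 FPKM in Cre (log2 change -2.55, SE 0.35, limma adjusted p = 5.56e-05). Pck1, the glyceroneogenic enzyme, had 17.1, 20.6 and 21.5 FPKM in ctrl against 2.58, 2.55 and 2.18 FPKM in Cre (-2.59). Agpat2, the acyltransferase lost in a congenital lipodystrophy, changed by -2.01 and the final acyltransferase gene Dgat2 by -1.70. The lipin genes were divided. Lpin1, the adipocyte phosphatidate phosphatase, was lower by values of 20.3, 22.6 and 17.5 FPKM against 45.6, 49.2 and 51.5 FPKM (-1.24), and Lpin3 was higher, at 8.78, 8.40 and 10.3 FPKM against 3.81, 3.52 and 3.40 FPKM (1.15). Mogat1, a monoacylglycerol acyltransferase, rested on 79 reads in ctrl and 2 reads in Cre, a ratio of 29.7 with a 95% counting interval of 9.23 to 289.6. Of the fatty acid synthesis genes 16 of 21 tested were lower and 0 higher, with a median change of -1.26. The desaturase gene Scd1 had 977.9, 1131.6 and 1323.0 FPKM in ctrl against 255.7, 346.6 and 161.5 FPKM in Cre (-2.22, SE 0.23, limma adjusted p = 6.09e-06). Fasn, the fatty acid synthase, had 568.1, 659.3 and 673.8 FPKM in ctrl against 246.1, 309.0 and 154.2 FPKM in Cre (-1.47). The desaturase Fads1 and the elongase Elovl6 gave no call, with changes of -0.03 and 0.01.

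Uptake and breakdown of fat followed. Of 18 tested lipolysis genes 14 were lower and 1 was higher, against 10.3% and 14.3% of all genes. The median level of the list was 54.5 FPKM in ctrl against 14.8 FPKM in Cre. Adrb3, the β3-adrenergic receptor through which noradrenaline starts lipolysis, had 49.0, 57.3 and 57.7 FPKM in ctrl against 9.04, 11.1 and 4.70 FPKM in Cre, a fall of 2.65 on the log2 scale (SE 0.24, limma adjusted p = 2.34e-06). The lipase genes Pnpla2 (ATGL) and Lipe (HSL) changed by -1.87 and -1.79, and Aqp7, the glycerol channel, by -2.30. G0s2, the inhibitor of ATGL, was lower as well (-1.60), so the enzyme and its inhibitor moved alike. Adcy3, an adenylyl cyclase, was the member that was higher (0.81). Of 19 tested genes of fatty acid uptake and binding 11 were lower and 2 higher. The fatty acid translocase gene Cd36 had 511.3, 487.6 and 589.2 FPKM in ctrl against 141.8, 160.4 and 85.4 FPKM in Cre (-2.07), and Lpl, the lipoprotein lipase, changed by -1.30. The fatty acid binding protein gene Fabp4 changed by -1.90 (limma adjusted p = 0.000509), but by only -0.47, with no call, after quantile normalization. The members that were higher were Lrp1 (0.92), an endocytic receptor, and Slc27a3 (0.78), an acyl-CoA synthetase. In each of these lists most members had their lowest value in Cre replicate 3 (14 of 18 for lipolysis and 16 of 21 for fatty acid synthesis).

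**Figure D2:**
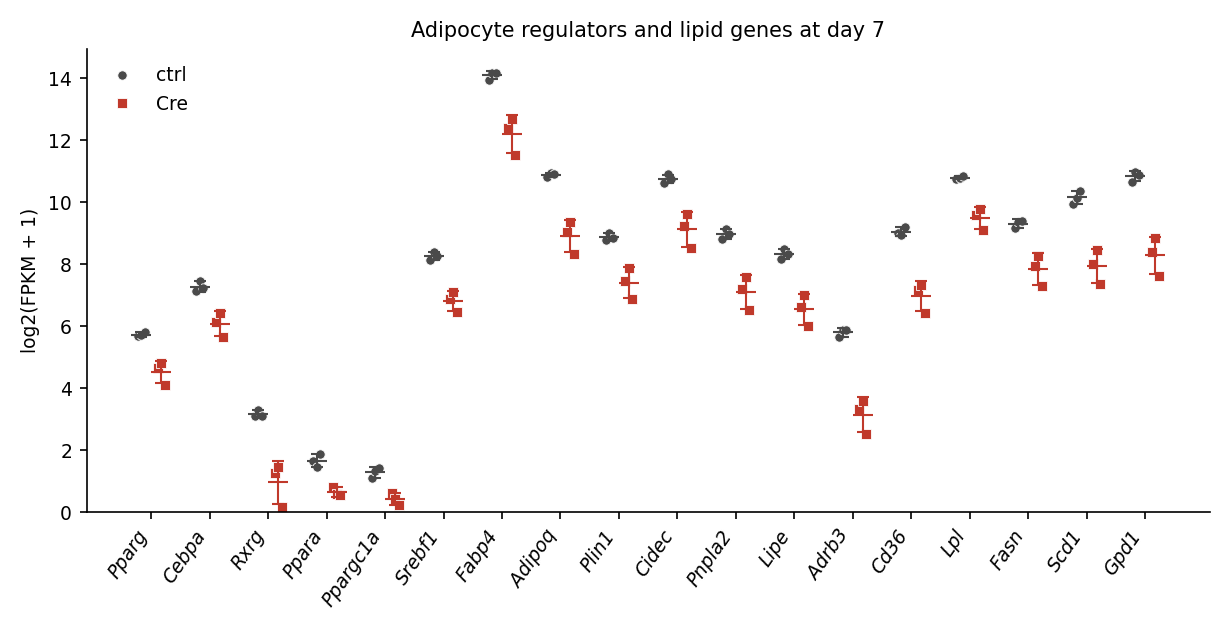
Levels at day 7 (log2(FPKM + 1), vertical axis) of 18 adipocyte regulators and lipid genes (horizontal axis) in the 3 ctrl libraries (circles) and the 3 Cre libraries (squares), with the mean and SD of each group. Ctrl and Cre libraries do not overlap for any gene drawn, as for 25.4% of all genes tested on the lower side. For Ppara and Ppargc1a this follows from the filter, which they passed through the ctrl libraries alone. Cre replicate 3 is the lowest Cre library for most of the genes drawn, such as Cidec at 365.4 FPKM.

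Secreted products and insulin response genes differed in how far they moved. Of 18 tested adipokine and secreted protein genes 13 were lower and 0 higher, against 10.3% and 14.3% of all genes. The median change of the list was -1.45, and 17 of 18 had their lowest value in Cre replicate 3. Adipoq (adiponectin) had 1789.9, 1964.0 and 1907.3 FPKM in ctrl against 521.7, 654.6 and 319.8 FPKM in Cre (log2 change -1.98, SE 0.35, limma adjusted p = 0.000342). Retn (resistin) had 279.8, 362.3 and 344.0 FPKM in ctrl against 71.3, 94.9 and 34.4 FPKM in Cre (-2.39), and Orm1, an acute phase protein gene, changed by -2.56. The highest Cre library was still under the lowest ctrl library for each, which was also so for 25.4% of all genes tested. Apln (apelin) and Vegfa, which are not restricted to fat cells, changed by 0.01 and -0.18 and gave no call at 1.5-fold. Lep was below the filter, with at most 0.322 FPKM in any of the 6 libraries. Among 23 insulin signalling genes 9 were lower and 2 higher. The insulin-responsive glucose transporter gene Slc2a4 (GLUT4) had 33.4, 41.3 and 42.2 FPKM in ctrl against 11.4, 17.3 and 7.67 FPKM in Cre (-1.67, SE 0.28, limma adjusted p = 0.000213), while Slc2a1 (GLUT1), the basal transporter, had 28.2, 24.9 and 22.0 FPKM in ctrl against 40.6, 34.5 and 40.6 FPKM in Cre (0.61). The kinase genes Akt2 and Akt1 split in the same way, with changes of -1.02 and 0.60. Both calls of Slc2a1 and Akt1 were lost with a pseudocount of 5, with median-of-ratios size factors, and when ctrl replicate 3 or Cre replicate 3 was left out, and that of Slc2a1 also without Cre replicate 1.

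Thermogenic genes were measured at low levels. Of 39 genes of the program 19 passed the filter. Of these 12 were lower in Cre and 2 higher, against 10.3% and 14.3% of all genes. Ucp1 was below the filter, with 0.892, 0.522 and 1.55 FPKM in ctrl against 0.254, 0.133 and 0 FPKM in Cre, which were 63 reads in the ctrl group and 7 reads in the Cre group. Cidea, Dio2 and Esrrg were below the filter too. Cox8b, a subunit of cytochrome c oxidase found in muscle and brown fat, had 9.87, 14.4 and 12.7 FPKM in ctrl against 0.230, 0 and 0.249 FPKM in Cre. Its Cre value rested on 2 reads against 164 in ctrl, a ratio of 77.2 with a 95% counting interval of 19.5 to 595.8. Elovl3, a fatty acid elongase of brown fat, changed by -2.83, Ffar4, a receptor for long-chain fatty acids, by -2.38, Clstn3 by -2.30, the proton channel gene Otop1 by -1.92 and Cox7a1 by -1.74. Ppargc1a, encoding the coactivator PGC-1α, had 1.14, 1.49 and 1.70 FPKM in ctrl against 0.531, 0.332 and 0.165 FPKM in Cre (log2 change -0.87, SE 0.12, limma adjusted p = 7.34e-05). Ppara, a nuclear receptor of fatty acid oxidation, had 2.14, 1.72 and 2.66 FPKM in ctrl against 0.764, 0.493 and 0.457 FPKM in Cre (-1.01, SE 0.12, limma adjusted p = 1.91e-05). Cox8b, Ppargc1a and Ppara passed the filter through their 3 ctrl libraries alone, with every Cre value under 1 FPKM. Their lack of overlap between groups thus followed from the filter and is not a result. Cox8b and Ppargc1a are among the 12 lower genes. With a pseudocount of 5 the changes of Ppargc1a and Ppara, -0.27 and -0.36, were no longer called. Prdm16, the brown fat determination factor, had 2.51, 2.75 and 3.14 FPKM in ctrl against 1.47, 1.61 and 1.76 FPKM in Cre, a change of -0.54 that was under 1.5-fold (limma adjusted p = 0.000628). The members that were higher were Slc29a1 (0.99), a nucleoside transporter, and Zic1 (0.65), whose call was lost with either other scaling. Of 11 tested genes of creatine and glycerol cycling 5 were lower and 1 was higher. The member that was higher was the creatine transporter gene Slc6a8, at 18.1, 17.4 and 16.2 FPKM in ctrl against 43.5, 39.7 and 47.8 FPKM in Cre (1.29).

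Most mitochondrial genes tested were lower. Of 72 tested subunits of the respiratory chain and ATP synthase 58 were lower and 0 higher at 1.5-fold, against 10.3% and 14.3% of all genes. The changes of these subunits ran from -1.66 to 0.00. Their median level was 217.0 FPKM in ctrl against 140.0 FPKM in Cre, against 84.5 and 96.6 FPKM at day 0, and 67 of the 72 were lowest in Cre replicate 3. Cycs (cytochrome c) had 122.2, 150.8 and 144.8 FPKM in ctrl against 47.3, 53 and 32.4 FPKM in Cre (log2 change -1.66, SE 0.14, limma adjusted p = 1.46e-06). At the other end Ndufs4, a subunit of complex I, had 41.5, 41.5 and 41.7 FPKM in ctrl against 40.5, 42.6 and 41.6 FPKM in Cre. In the tricarboxylic acid cycle and the breakdown of branched-chain amino acids 34 of 42 genes were lower and 1 was higher. Citrate synthase, Cs, had 645.8, 698.4 and 709.6 FPKM in ctrl against 260.5, 282.1 and 196.6 FPKM in Cre (-1.49), and Pcx, pyruvate carboxylase, changed by -1.75. The member that was higher was Bcat1 (0.66), the cytosolic branched-chain aminotransferase. Its call was lost with a pseudocount of 5, with median-of-ratios size factors, with quantile normalization and without Cre replicate 3. Of 35 tested genes of fatty acid oxidation 27 were lower and 0 higher, with a median change of -1.20. Acaa1b, a peroxisomal thiolase, had the largest fall (-2.99), followed by the peroxisomal enzyme gene Ehhadh (-1.73). Acadm, the medium-chain dehydrogenase, had 188.6, 215.4 and 223.3 FPKM in ctrl against 72.6, 92.5 and 54.1 FPKM in Cre (-1.53). The gatekeeper of mitochondrial entry, Cpt1a, stood apart at 36.2, 35.5 and 39.1 FPKM in ctrl against 31.2, 33.9 and 31.6 FPKM in Cre, a change of -0.19 that was under 1.5-fold. Of 22 tested genes of cholesterol synthesis and uptake 18 were lower and 0 higher. Insig1, which holds SREBPs in the endoplasmic reticulum, changed by -1.70 and the farnesyl diphosphate synthase gene Fdps by -1.47, while Srebf2 changed by 0.10.

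Genes of the precursor state and of the matrix were on the other side. Of 22 tested precursor markers 14 were higher in Cre and 4 lower, against 14.3% and 10.3% of all genes. Among the 4 lower were Col15a1 (-1.71) and Dcn (-0.81), which are also in the matrix list below. Cd24a and Cd9, surface markers of adipose progenitors, rose by 1.60 and 1.46, and Ly6a, encoding the stem cell antigen Sca-1, had 391.4, 395.5 and 370.3 FPKM in ctrl against 858.2, 878.4 and 964.5 FPKM in Cre (log2 change 1.22, SE 0.09, limma adjusted p = 4.90e-07). Pdgfra, the receptor that marks precursors, had 34.6, 24.1 and 28.7 FPKM in ctrl against 48.3, 43.7 and 53.5 FPKM in Cre (0.72). Of 36 tested collagen and matrix genes 18 were higher and 4 lower. Col12a1, a collagen of dense tissue, rose by 1.63, the matricellular Thbs2 by 1.60 and the cross-linking enzyme gene Loxl2 by 1.43, and Col1a1 had 415.9, 423.7 and 383.7 FPKM in ctrl against 791.7, 776.1 and 920.6 FPKM in Cre (1.02). The 4 lower members went against this count. Col15a1, a basement membrane collagen, had 198.6, 224.1 and 208.2 FPKM in ctrl against 61.6, 78.6 and 52.6 FPKM in Cre (-1.71), and Col5a3, Dcn (decorin) and Eln (elastin) changed by -0.96, -0.81 and -0.76. Col3a1, the other abundant fibrillar collagen, had 480.9, 455.0 and 436.6 FPKM in ctrl against 454.5, 468.2 and 491.8 FPKM in Cre and gave no call. The matrix did not rise as one, since its collagens moved in both directions.

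Contractile genes and targets of the coactivator YAP were higher in 15 of 27 cases and lower in 2, against 14.3% and 10.3% of all genes. Cyr61, a classical YAP target, had 52.9, 46.5 and 44.9 FPKM in ctrl against 119.4, 97.9 and 115.7 FPKM in Cre (log2 change 1.19, SE 0.09, limma adjusted p = 9.15e-07). The calponin gene Cnn2 rose by 1.11 and Mkl1, the actin-sensing coactivator of serum response factor, by 1.00. Acta2 and Myl9, the smooth muscle actin and light chain genes, changed by 0.49 and 0.47, under 1.5-fold, and Tagln by -0.05. Myh11, the smooth muscle myosin, was lower, at 2.80, 3.03 and 2.51 FPKM in ctrl against 0.666, 0.741 and 0.642 FPKM in Cre (-1.17). The summed mural markers were 56.9 to 60.4 FPKM in ctrl against 32.0 to 46.6 FPKM in Cre and came mostly from Mcam (-1.16), with Kcnj8 and Higd1b at 0 in all 6 libraries; their part in the contractile genes was not tested. Of 34 skeletal muscle genes only 9 passed the filter. The myogenic regulator Myod1 was at 0 reads in all 6 libraries and Myog had 1 read in the ctrl group and 3 in the Cre group. Tnnc2, a fast troponin, was lower (-2.06) and Pax3, at most 1.94 FPKM, was higher (0.72). The median of the list was -0.01.

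Signalling genes moved with the precursor genes in count, but singly in both directions. Of 16 tested Wnt ligands and antagonists 9 were higher and 0 lower, against 14.3% and 10.3% of all genes. Sfrp1 and Sfrp2 encode secreted Wnt antagonists, and Sfrp1 had 61.6, 43.5 and 47.5 FPKM in ctrl against 159.8, 136.1 and 176.0 FPKM in Cre (log2 change 1.62, SE 0.13, limma adjusted p = 9.48e-07), with Sfrp2 higher by 0.98. Nkd2, an intracellular antagonist, rose by 1.47, Wisp1, a Wnt target, by 1.45 and the ligand gene Wnt2 by 1.03, whereas Axin2, the usual readout of β-catenin, gave no call (-0.26, limma adjusted p = 0.186). Ligand and antagonists were thus both higher. Of 35 tested genes of TGF-β, activin and BMP signalling 20 were higher and 3 lower. The BMP antagonist gene Grem1 had 2.09, 1.28 and 2.98 FPKM in ctrl against 10.6, 12.3 and 19.4 FPKM in Cre (2.27, SE 0.21, limma adjusted p = 2.67e-06), and Nbl1, another BMP antagonist, rose by 1.4. Tgfbr2, the TGF-β receptor, rose by 1.20 and Inhbb, an activin subunit, by 1.14. Acvr1c, the receptor ALK7 of fat cells, had 8.73, 8.26 and 8.2 FPKM in ctrl against 2.54, 2.69 and 1.77 FPKM in Cre (-1.51). Of 26 tested genes of IGF, FGF and related growth factor signalling 9 were higher and 5 lower, 34.6% and 19.2% of the list. Fgf21, the fasting and cold hormone, had 6.54, 8.75 and 12 FPKM in ctrl against 0.440, 2.08 and 0.574 FPKM in Cre (-2.37), and its co-receptor gene Klb was lower as well (-1.23). Pleiotrophin, Ptn, was at 149.0, 127.2 and 127.0 FPKM in ctrl against 517.1, 475.1 and 543.5 FPKM in Cre (1.92, SE 0.08, limma adjusted p = 2.62e-08).

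Proteases, chemokines and interferon-stimulated genes were also higher by count. Of 24 tested matrix proteases and inhibitors 18 were higher and 2 lower, against 14.3% and 10.3% of all genes. The share higher was the largest of any list of higher genes, with a median change of 0.83. Ctsk, the collagen-degrading cathepsin, had 11.7, 9.69 and 11.4 FPKM in ctrl against 27.0, 31.3 and 34.6 FPKM in Cre (log2 change 1.42, SE 0.12, limma adjusted p = 1.57e-06). Plat, the plasminogen activator, rose by 1.41, and the inhibitor genes Timp2 and Timp1 by 1.29 and 1.09, so enzymes and inhibitors rose alike. Of 25 tested chemokine, cytokine and prostaglandin genes 13 were higher and 3 lower. Ccl2, the monocyte chemoattractant, had 141.2, 128.5 and 124.5 FPKM in ctrl against 435.2, 356.0 and 429.4 FPKM in Cre (1.62), and its neighbour Ccl7 rose by 1.57. Hp (haptoglobin), Saa3 and Lcn2, acute phase genes that fat cells make, changed by -1.60, -0.92 and -0.61 and were the members that were lower. The call of Lcn2 was lost with a pseudocount of 5, at a limma adjusted p under 0.01, and without ctrl replicate 3 or Cre replicate 3. Of 35 interferon-stimulated genes 20 were higher and 1 lower. Mx1 and Oas3, antiviral effectors, rose by 1.48 and 1.64, and Ifit3 by 1.32. Ifi27, the member that was lower, had 474.4, 585.3 and 542.6 FPKM in ctrl against 198.3, 231.1 and 164.2 FPKM in Cre (-1.44). Macrophage markers summed to 6.41 to 6.94 FPKM in ctrl against 8.43 to 10.1 FPKM in Cre, with Cd14 called higher. Csf1r, below the filter, had 63 reads in the ctrl group and 114 in the Cre group. Adgre1, Ptprc, C1qa, C1qb and Aif1 were at 0.

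The lists of general cell functions differed from each other. Of 39 proliferation genes 1 was higher and 1 lower, against 14.3% and 10.3% of all genes. The 2 called were Ccnd1 (0.78, cyclin D1) and Ccne2 (-0.67, cyclin E2). The list median of 0.01 became -0.11 with median-of-ratios size factors. Of 24 tested p53 targets 9 were higher and 1 lower, and large T antigen, which binds p53, was in both groups. Of 39 tested antioxidant and detoxification genes 10 were higher and 13 lower, with a median of -0.03. This list held the largest fall and the largest rise of the genes named, those of Cbr2 and Gpx3 below. Cat (catalase), an enzyme of peroxisomes, had 331.1, 347.5 and 354.3 FPKM in ctrl against 126.0, 148.6 and 88.5 FPKM in Cre (-1.53), and the epoxide hydrolase genes parted, with Ephx2 at -2.75 and Ephx1 at 1.12.

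**Figure D3:**
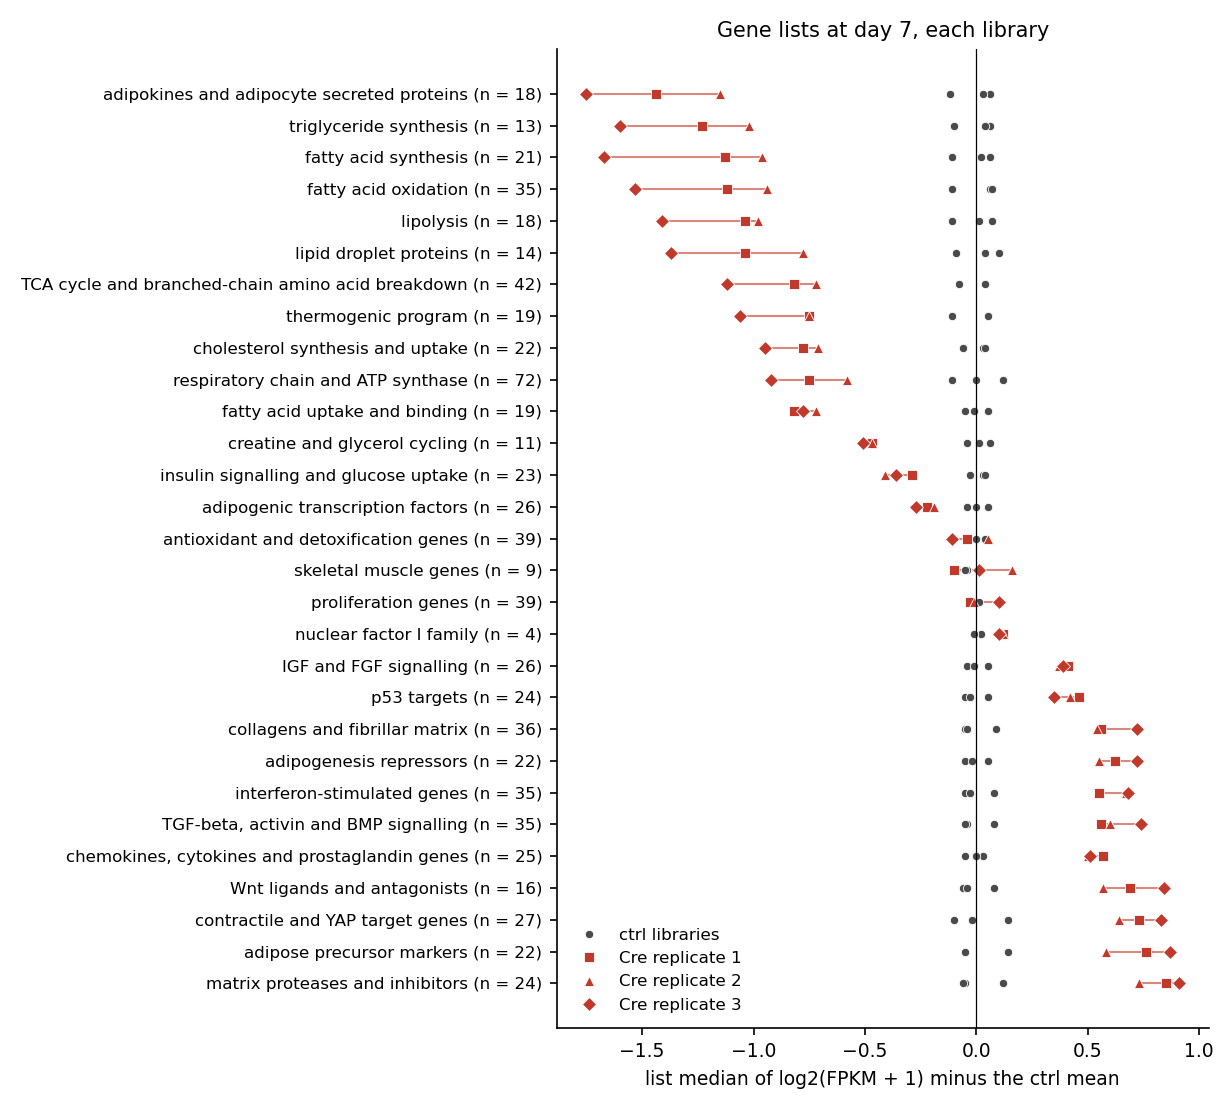
Median over the tested members of each of 29 gene lists (vertical axis, number of tested members in brackets) of log2(FPKM + 1) minus the ctrl mean at day 7 (horizontal axis), for each ctrl library (circles) and each Cre library (squares, triangles and diamonds for replicates 1, 2 and 3). Adipocyte lists lie to the left of 0, such as fatty acid synthesis at -1.13, -0.96 and -1.67 in Cre replicates 1, 2 and 3, and the precursor, matrix and signalling lists lie to the right, such as adipogenesis repressors at 0.62, 0.55 and 0.72.

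The 15 largest falls among the called genes that did not overlap were led by Cbr2, Cox8b and Nos3. Cbr2, a carbonyl reductase, had 34.5, 51.9 and 51.1 FPKM in ctrl against 2.86, 3.64 and 2.48 FPKM in Cre (log2 change -3.54, SE 0.14, limma adjusted p = 2.62e-08). It differed from the others in its level before differentiation, 15 FPKM in ctrl against 19.1 FPKM in Cre, so that its Cre level at day 7 was below that of day 0. Nos3, the endothelial nitric oxide synthase, had 15.1, 18.2 and 18.0 FPKM in ctrl against 1.07, 0.715 and 0.637 FPKM in Cre (-3.32). Beside it, the summed endothelial markers were 3.59 to 4.21 FPKM in ctrl against 4.34 to 4.59 FPKM in Cre, and Tie1, Emcn and Robo4 were at 0. Pecam1, below the filter, had 40 reads in ctrl and 8 in Cre, and Tek had 190 reads in ctrl and 282 in Cre. The part of such cells in the value of Nos3 was not tested. Ces1d, a carboxylesterase that hydrolyses triglyceride, had 32.1, 40.0 and 42.1 FPKM in ctrl against 3.22, 4.22 and 1.93 FPKM in Cre (-3.27). Reads shared with other carboxylesterases of its cluster were not counted, so its value is uncertain. Ppp1r1a, an inhibitor of protein phosphatase 1, changed by -3.24, and Angptl8, an insulin-induced regulator of lipoprotein lipase, by -3.04. The retinol carrier Rbp4 had 78.8, 87.9 and 84.8 FPKM in ctrl against 9.90, 13.7 and 7.4 FPKM in Cre (-2.94), and Car3, a carbonic anhydrase abundant in fat, had 128.4, 166.5 and 157.2 FPKM in ctrl against 20.9, 28.9 and 11.4 FPKM in Cre (-2.91). Cfd (adipsin, complement factor D) had 237.8, 336.5 and 287.1 FPKM in ctrl against 41.2, 67.1 and 27.7 FPKM in Cre (-2.71). The remaining falls were Acaa1b and Elovl3, given above, Wfdc21 (-2.83), the mitochondrial protein gene Chchd10 (-2.80), Ephx2 and the endoplasmic reticulum shaping gene Reep6 (-2.69). In Cre + NFIA libraries Rbp4 had a mean of 322.2 FPKM, Cox8b of 110.6 FPKM and Cbr2 of 185.2 FPKM, above the ctrl means of 83.9, 12.3 and 45.8 FPKM, but Car3 had 39.0 FPKM and Cfd 140.1 FPKM against 150.7 and 287.1 FPKM in ctrl. Any comparison of those libraries with Cre would share the Cre libraries, so the values are given side by side without a test.

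Of the 15 largest rises, Gpx3, the secreted glutathione peroxidase, was first, with 14.6, 12.9 and 12.1 FPKM in ctrl against 92.9, 77.9 and 87.4 FPKM in Cre (log2 change 2.62, SE 0.11, limma adjusted p = 2.62e-08). Prl2c2 (proliferin) had 17.4, 13.5 and 13.7 FPKM in ctrl against 73.0, 58.4 and 90.8 FPKM in Cre (2.23), and its value is uncertain because reads that match near-identical members of its family were not counted. Gpnmb, a transmembrane glycoprotein of lysosomes, had 16.9, 12.4 and 13.3 FPKM in ctrl against 64.5, 64.8 and 79.3 FPKM in Cre (2.22). Grem1 and Ptn are given above. Some of the rises concern eicosanoid and cytokine signals or the matrix. The cyclooxygenase gene Ptgs1 had 11.5, 9.64 and 10.6 FPKM in ctrl against 35.4, 33.7 and 39.9 FPKM in Cre (1.69). Il1rl1, the interleukin 33 receptor, had 8.53, 6.0 and 6.49 FPKM in ctrl against 25.2, 20.2 and 31.9 FPKM in Cre (1.73), and Tgfbi, a TGF-β-induced matrix protein gene, changed by 1.66. The others were Tmem37 (1.84), the cornified envelope gene Sprr1a (1.82), Slc6a17 (1.77), the synaptotagmin gene Syt13 (1.75), Pamr1 (1.72), Smoc2 (1.69), which encodes a matricellular protein, and Fgd3 (1.66). Their Cre libraries lay above their ctrl libraries without overlap, as the rule that chose them required.

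**Figure D4:**
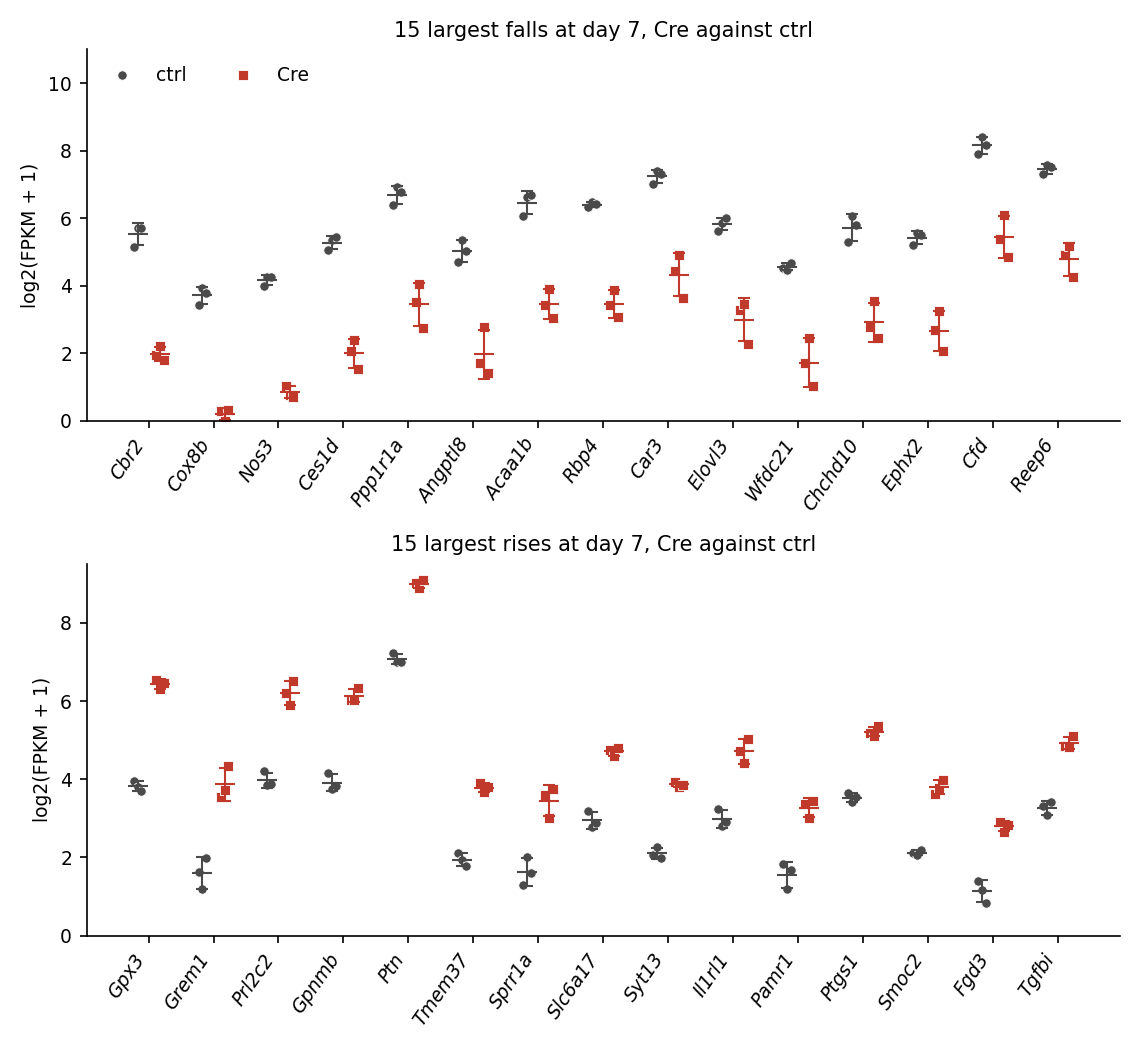
Levels at day 7 (log2(FPKM + 1), vertical axis) of the 15 genes with the largest fall (upper panel) and the 15 with the largest rise (lower panel) among called genes whose groups did not overlap (horizontal axis), in the 3 ctrl libraries (circles) and the 3 Cre libraries (squares), with the mean and SD of each group. Cox8b lies near 0 in all 3 Cre libraries, at 0 to 0.249 FPKM, and Gpx3 lies at 77.9 to 92.9 FPKM in Cre against 12.1 to 14.6 FPKM in ctrl.

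Promoters were read for the members that fell, as 250 bases before each start in RefSeq on GRCm38.p6, and searched on both strands for the NFI palindrome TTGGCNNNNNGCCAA, for its arm TTGGCA, and for the PPAR and RXR motif AGGTCANAGGTCA. The arm can lie within the palindrome. Of the 160 lower genes 98 had a promoter in the table, and 18 of these genes (18.4%) held the arm, against 11.5% of 9072 tested genes with a promoter, 14.1% of all genes in the table and 1 of 15 higher genes (6.67%). Counted by promoter, since a gene can have several, the shares were 13.1% for the lower genes, 9.52% for the genes tested and 12.3% for all promoters. The palindrome and the PPAR motif were in 0 of the 98, and in 0.0365% and 0.0335% of all promoters. A match is a description of letters only. Among the 15 largest falls 7 had a promoter and 3 of these held the arm, and among the 15 largest rises 11 had one and 0 held it. The windows with a match are printed for Cox8b, Rbp4, Chchd10 and for the third start of Pparg, written 5′ to 3′ on the gene's strand with the arm in capitals. They are Cox8b at chr7:140900447-140900696 (minus strand), Rbp4 at chr19:38125322-38125571 (minus strand), Chchd10 at chr10:75932880-75933129 (plus strand) and Pparg at chr6:115421816-115422065 (plus strand).
Cox8b: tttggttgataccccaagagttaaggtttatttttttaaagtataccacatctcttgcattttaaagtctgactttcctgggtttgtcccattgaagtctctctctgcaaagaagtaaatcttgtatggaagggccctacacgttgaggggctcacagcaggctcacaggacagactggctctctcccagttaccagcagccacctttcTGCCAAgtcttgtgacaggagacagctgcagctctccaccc
Rbp4: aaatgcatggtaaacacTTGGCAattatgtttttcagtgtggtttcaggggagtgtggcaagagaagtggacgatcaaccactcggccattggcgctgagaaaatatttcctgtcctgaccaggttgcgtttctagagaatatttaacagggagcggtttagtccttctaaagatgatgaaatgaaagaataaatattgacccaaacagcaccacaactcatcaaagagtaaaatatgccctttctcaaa
Chchd10: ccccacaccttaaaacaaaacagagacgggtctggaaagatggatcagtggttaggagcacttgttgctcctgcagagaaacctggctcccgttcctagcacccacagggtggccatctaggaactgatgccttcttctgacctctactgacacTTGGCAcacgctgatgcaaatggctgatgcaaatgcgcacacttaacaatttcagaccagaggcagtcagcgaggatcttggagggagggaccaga
Pparg: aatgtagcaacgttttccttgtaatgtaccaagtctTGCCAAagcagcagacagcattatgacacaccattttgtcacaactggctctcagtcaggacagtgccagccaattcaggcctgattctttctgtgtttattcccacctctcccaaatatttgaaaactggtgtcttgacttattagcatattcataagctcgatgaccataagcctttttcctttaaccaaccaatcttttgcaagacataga
The match lies 41 bases before the start in Cox8b, 233 in Rbp4, 96 in Chchd10 and 214 in Pparg. It is on the opposite strand to the gene in Cox8b and Pparg, where the capitals read TGCCAA. The other starts of Pparg and Rbp4 held none of these motifs. No start of Cebpa, Adipoq, Plin1, Cidec or Pck1, which were searched likewise, held any.

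Before differentiation the 2 groups differed in few genes. At day 0, with the same 11805 genes, 11 were higher in Cre (0.0932%) and 69 lower (0.584%) at 1.5-fold, together 0.678%. At 3-fold 2 were higher (0.0169%) and 2 lower (0.0169%), together 0.0339%. The 2 lower at 3-fold, named after their values were seen, were Dcn, at 18.8 FPKM in ctrl against 5.15 FPKM in Cre, and the microRNA gene Mirlet7e, and the 2 higher, also named so, were the short genes Mir199a-1 and Mir7054, whose values are uncertain. None of the lists of lipid, mitochondrial and thermogenic genes held a call at day 0. Most calls in lists fell on the precursor markers (6 of 22 lower) and the collagens (6 of 36 lower). TGF-β and BMP signalling had 2 lower genes, insulin signalling, contractile and YAP target, IGF and FGF and chemokine genes had 1 lower each, and antioxidant genes had 1 higher and 1 lower. Pdgfra was lower at day 0, with means of 135.6 FPKM in ctrl against 74.1 FPKM in Cre (log2 change -0.86, limma adjusted p = 1.61e-05), and higher at day 7, so its difference between the groups turned round. Thy1, a surface marker of mesenchymal cells, did the same, with a change of -0.87 at day 0 and 0.75 at day 7. Col15a1 was lower on both days (-0.75 and -1.71), and Gpx3 was higher on both, with day 0 means of 21.6 and 44.2 FPKM and a change of 1.00.

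The difference between the days was tested as an interaction, the day 7 change minus the day 0 change in one fit of all 24 libraries. At 1.5-fold, 1829 genes (15.5%) had a higher and 1329 (11.3%) a lower change at day 7, and with median-of-ratios size factors the split was 1379 and 1692. Of the 160 genes lower at 3-fold 156 were called in the same direction by this test, and of the 29 higher genes 27. Their day 0 medians were 0.383 FPKM in ctrl against 0.312 FPKM in Cre for the lower genes, and 13.0 and 12.7 FPKM for the higher genes. These are medians, and single genes stood apart. The desaturase gene Scd1 was at 63.2 FPKM in ctrl at day 0 although it was lower at day 7, and Sprr1a was at 0.243 FPKM although it was higher. Among lists, 66 of 72 respiratory chain genes, 27 of 35 fatty acid oxidation genes and 17 of 21 fatty acid synthesis genes had a lower change at day 7 by the interaction. For adipogenesis repressors 12 of 22, and for collagens and matrix genes 26 of 36, had a higher one. The day 0 level told which form a higher value took. Dlk1 was at 2.44 and 2.61 FPKM at day 0 and at 3.91 FPKM in ctrl against 12.6 FPKM in Cre at day 7, so it was above its starting level in Cre. Ptn was at 559.0 and 573.3 FPKM at day 0, and its day 7 means were 134.4 FPKM in ctrl against 511.9 FPKM in Cre. Ccl2 fell in level in both groups, from 1498.2 FPKM to 131.4 FPKM in ctrl and from 1784.0 FPKM to 406.8 FPKM in Cre.

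**Figure D5:**
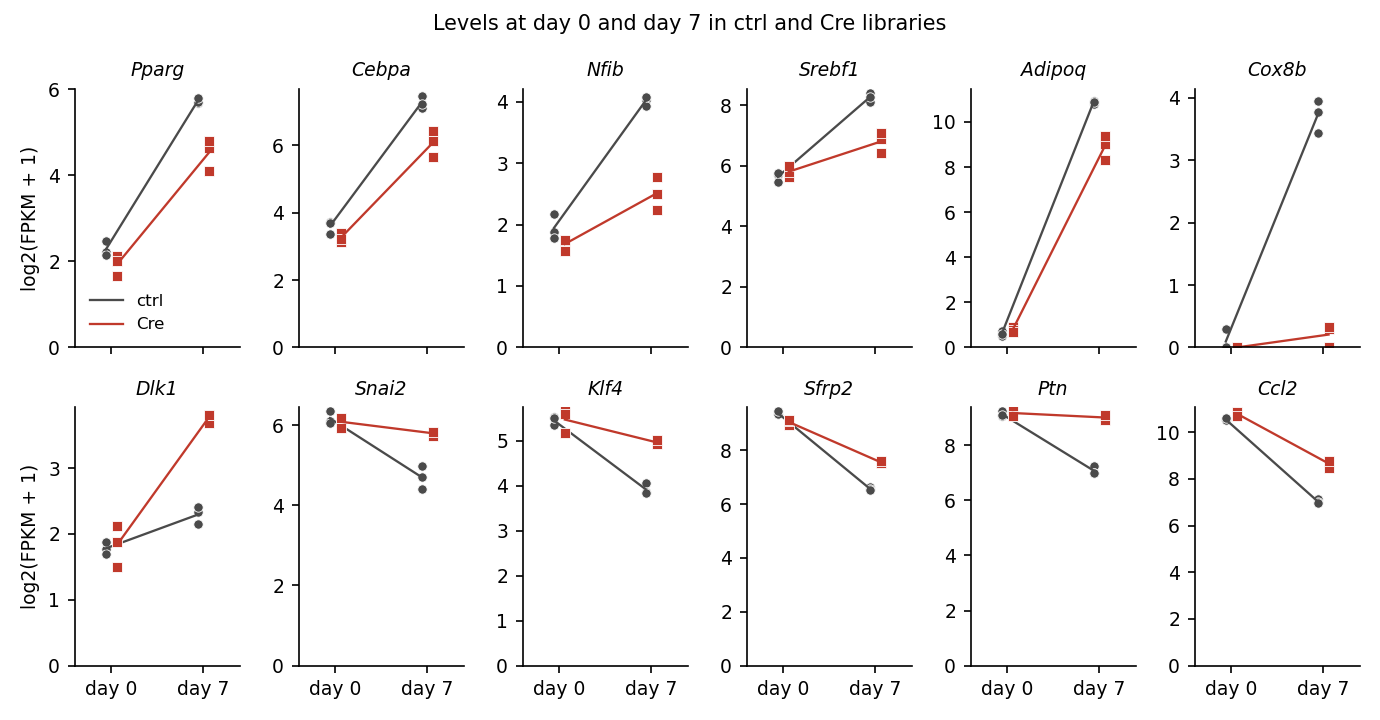
Levels of 12 genes (log2(FPKM + 1), vertical axes) at day 0 and day 7 (horizontal axes) in ctrl libraries (circles) and Cre libraries (squares), with lines between the group means. The genes of the upper row start close to each other and separate by day 7, as for Adipoq at 0.527 and 0.741 FPKM at day 0 against 1887.1 and 498.7 FPKM at day 7 in ctrl and Cre, and those of the lower row have a higher level in Cre than in ctrl at day 7.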

How the data were processed

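RNA-seq libraries of immortalised inguinal SVF cells were analysed, 3 for each of 4 groups at day 0 and at day 7. The groups were ctrl, Cre, Cre + NFIA and Cre + NFIA deltapro#3. As deposited, each file gives one FPKM value per gene symbol, which the authors made from STAR gene counts of uniquely mapped reads on the matched strand. STAR 2.5.3a and mm9 are named in the submitters' processing notes, and the gene annotation is not given in the sources used here. Values were read as log2(FPKM + 1). Whole reads were recovered from the steps of the values (100.0% of values whole within 0.01 reads) and gave the depths and an alternative test.

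Genes with an FPKM of at least 1 in at least 3 of the 6 ctrl and Cre libraries of day 7 entered limma 3.58.1 (R 4.3.3, trended prior). The 12 day 7 libraries shared one spread, the contrast was Cre minus ctrl, and Benjamini-Hochberg adjustment covered all 11805 genes. A call needed an adjusted p under 0.05 and a change of 3-fold on the log2(FPKM + 1) scale, or of 1.5-fold for gene lists. The study called genes at a change of the same nominal size with another test on another scale. The 12 day 0 libraries were fitted likewise, and all 24 gave the interaction. The model was tested on simulated data, where of 197 day 7 genes changed by 6-fold 195 were recovered at 1.5-fold and 180 at 3-fold. In that run 13 unchanged genes were called at 1.5-fold and 3 at 3-fold. Of 196 genes changed by 2-fold 178 were recovered at 1.5-fold. Each gene was drawn independently with a fixed dispersion, so genes that deviate together in a library, as in Cre replicate 3, were not simulated. With no change made, 4 genes were called at 1.5-fold and 0 at 3-fold.

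The genes named were the targets and regulators the study is about, the 15 largest falls and rises among 3-fold calls without overlap of the groups and of 200 bases or more, and in each list up to 6 tested members with the largest change in either direction or whose role defines it. Some of the members that went against the count of a list, or gave no call, were also named after their values were seen. The members and lists were chosen with earlier results of these data known. Symbols turned into dates (26) are not named, and genes of multi-copy families or under 200 bases are uncertain. Same-numbered replicates did not deviate together at day 7 (correlations 0.034, 0.22 and -0.094), so replicate numbers were not used as pairs. Alternatives varied the pseudocount, filter, scaling, libraries in the fit, test, threshold and each replicate.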

Additional observations from a re-analysis of the deposited data

Results flagged for a closer look

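The change between Cre and ctrl at day 7 differed from that at day 0 by the interaction term (limma, all 24 libraries) for 38 of the genes named, and each value here is the day 7 change minus the day 0 change on the log2(FPKM + 1) scale. Among regulators it was -1.25 for Nfib, 0.68 for Nfix, -0.85 for Pparg, -0.86 for Cebpa, -0.88 for Ppara and -0.90 for Ppargc1a. It was -2.01 for Fabp4 and 0.81 for Myl9, a contractile gene whose day 7 change itself was under 1.5-fold.

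For the largest falls the differences were close to the day 7 changes, since most of these genes were near 0 at day 0. The values were -3.89 for Cbr2, -3.42 for Cox8b, -3.28 for Nos3, -3.26 for Ces1d, -3.25 for Ppp1r1a, -3.39 for Angptl8 and -3.22 for Acaa1b. They were -2.61 for Rbp4, -2.97 for Car3, -2.85 for Elovl3, -2.62 for Wfdc21, -3.00 for Chchd10, -2.73 for Ephx2, -2.81 for Cfd and -2.58 for Reep6.

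For the largest rises they were 1.61 for Gpx3, 1.72 for Grem1, 1.87 for Prl2c2, 1.98 for Gpnmb, 1.89 for Ptn, 1.29 for Tmem37, 1.46 for Sprr1a and 1.37 for Slc6a17. They were 1.01 for Syt13, 1.33 for Il1rl1, 1.80 for Pamr1, 1.81 for Ptgs1, 1.55 for Smoc2, 1.21 for Fgd3 and 1.46 for Tgfbi. Gpx3 and Syt13 were also called higher at day 0 at 1.5-fold, by 1.00 and 0.74. Smaller day 0 rises, under 1.5-fold, were seen for others, such as Grem1 (0.55, limma adjusted p = 0.0191) and Slc6a17 (0.39, limma adjusted p = 0.0263). The difference is smaller than the day 7 change for all of these rises but Pamr1 and Ptgs1. What sets the day 0 and day 7 differences apart was not tested.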

How the results depend on the processing

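No called gene named in the text turned its direction, but median-of-ratios size factors moved the median of all genes to -0.02 and that of proliferation genes to -0.11, and turned the 1.5-fold splits at day 7 (1279 higher, 1531 lower) and of the interaction (1379 and 1692). The medians near 0 of the antioxidant and skeletal muscle lists also changed sign, to 0.07 and 0.08 with a mean FPKM of at least 5. The 189 genes called at 3-fold became 371 (104 higher, 267 lower) with a pseudocount of 0.1, 72 (5 and 67) with a pseudocount of 5 and 404 (133 and 271) by voom on recovered reads. The 2898 calls at 1.5-fold became 1624 (812 and 812) with a pseudocount of 5. The 80 calls of day 0 became 23 with a pseudocount of 5, 46 with a mean FPKM of at least 5, 37 with only ctrl and Cre libraries in the fit, 135 by voom and 47 at an adjusted p under 0.01. The 3158 calls of the interaction became 1765 with a pseudocount of 5. Leaving out each replicate gave 129 to 254 calls at 3-fold, lowest without Cre replicate 3 (120 shared with the full set) and highest without Cre replicate 2, 2598 to 3190 at 1.5-fold, 62 to 92 at day 0 and 2870 to 3466 for the interaction. Median-of-ratios size factors gave 218 calls at 3-fold (17 and 201), and quantile normalization gave 184 (23 and 161) and split the 1.5-fold calls into 1372 and 1343.

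With the replicate number as a block, although the numbers did not pair the samples, 189 genes were called at 3-fold, all 189 the same, with 2899 at 1.5-fold, 75 at day 0 and 3153 for the interaction. A fit of all 24 libraries, chosen after seeing the data, gave 188, 2890 and 87. Of 468 called list members and named genes 352 kept their call at 1.5-fold under every alternative in which they were tested. Depth limits the lowest genes, such as Ucp1 and Cox8b, which rest on 7 and 2 reads in the Cre group. Why counts move with voom or a left-out library was not tested.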

Other observations

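Genes outside the lists were also among the 160 lower at 3-fold, and those here were chosen after their values were seen. Mc2r, the receptor of adrenocorticotropic hormone, and Mrap, its accessory protein, changed together, by -1.69 and -1.97. Genes that mark fat cells were among them, such as Adig (adipogenin), at -2.42, and Lgals12 (galectin-12), at -1.91. Pnpla3, a lipase relative, changed by -2.51 and Nat8l, which makes N-acetylaspartate from acetyl-CoA, by -2.21. Mitochondrial carriers were represented by Slc25a34 at -2.51 and Ucp2 at -2.21. Chrna2, an acetylcholine receptor subunit of beige fat, changed by -1.85, and Lncbate1, a long noncoding RNA of brown fat, by -1.80. Gys2, a glycogen synthase, and Pemt, which makes phosphatidylcholine, changed by -1.66 and -1.61.

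At day 0 the lower genes at 1.5-fold included extracellular and growth factor genes besides Dcn. Nov, a matricellular protein gene, changed by -1.50, Mgp (matrix Gla protein) by -1.27, Lama4, a laminin chain, by -1.19, the adaptor gene Grb10 by -1.13 and Hgf, the hepatocyte growth factor, by -0.96. Col7a1 (0.75) and Spp1 (osteopontin, 0.63) were among the 11 higher genes. These were also chosen after their values were seen.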
